A study of Mus musculus with 8 samples.

Results

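The genes of respiratory chain complexes I to V were followed in antigen-specific CD8 T cells sorted by the inhibitory Fc receptor FcgRIIB. Members are the rows of the expression table whose symbol begins with Nduf (complex I), is Sdha, Sdhb, Sdhc or Sdhd (complex II), or begins with Uqcr (complex III), with Cox4, Cox5, Cox6, Cox7 or Cox8 (complex IV) or with Atp5 (complex V). The rule took 84 of 13204 genes, of which 44 belong to complex I, 4 to complex II, 8 to complex III, 11 to complex IV and 17 to complex V. It used names and no measured value, and all 84 members passed the filter on low values. Genes that the table lists under symbols outside this rule and subunits encoded by mitochondrial DNA were not taken as members. Muscle-type isoforms such as Cox6a2 and Cox7a1 fit the rule but have no row in the expression table.

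All libraries come from mouse OT-I cells, CD8 T cells whose transgenic receptor recognises an ovalbumin peptide. Recipients received 1000000 of these cells and, 24 hours later, ovalbumin-expressing skin, and were analysed on day 14. Spleens were pooled by 3, and from every one of the 4 pools 1000 FcgRIIB-positive and 1000 FcgRIIB-negative cells were sorted within the same CD44hi Thy1.1+ CD8+ gate, which gave 4 positive and 4 negative libraries that are paired by pool. Age, sex and strain of the recipients are not given in the labels, and each library averages over 3 animals.

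The respiratory chain passes electrons from NADH (complex I) and succinate (complex II) through ubiquinone, complex III and cytochrome c to oxygen at complex IV, and complex V, the ATP synthase, uses the resulting proton gradient to make ATP. Each complex combines a few catalytic subunits with many small accessory ones, most of them encoded in the nucleus. In CD8 T cells oxidative phosphorylation is known above all for its part in long-lived memory cells, while newly activated effector cells also rely strongly on glycolysis.

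Depth ranged from 3060000 to 22010000 reads per library. Replicates 1 and 2 had 16470000 to 22010000 reads and replicates 3 and 4 had 3060000 to 7360000. The labels give no batch. Transcripts of several other cell types moved with the sort. Of the dendritic cell markers 11 of 12 were called higher in positive libraries, and of the macrophage and monocyte markers 12 of 12. The basophil and mast cell markers gave 7 of 7, while 6 of 15 core T cell genes were lower. Other lists held fewer calls. Of the B and plasma cell markers 2 of 6 were higher and 1 lower. Of the erythroid and platelet markers 1 of 5 was higher, and of the neutrophil markers 0 of 5 were called. Of all genes tested 7.22% were higher and 3.85% lower. The mean log2(RPKM + 1) of the dendritic cell list was 5.10 to 6.09 in positive and 1.56 to 2.88 in negative libraries, that of the macrophage list 6.27 to 7.16 against 3.17 to 5.20, and that of the core T cell list 6.29 to 7.06 against 7.42 to 7.91. No gene of these 3 lists was at 0 in any library. RPKM is the read number scaled by exon length and by the library's total, so a level is relative to all RNA of the sorted cells. In bulk libraries fewer cells of a type and less RNA per cell cannot be told apart, and the part of these transcripts in the members' values was not tested.

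Some members hold, near their starts, letters that resemble sites of factors known for nuclear-encoded mitochondrial genes. RefSeq promoter windows (build GRCm38.p6, 250 bases before to 50 after the start) were found for 72 of the 84 members and searched on both strands. The 10 letters of the NRF1 motif, which are the capitals in the sequences printed here and read the same on both strands, were in 9.72% of these members and in 2.36% of the 9563 genes tested that have such a window. The YY1 letters AAGATGGC were in 15.28% against 5.39%, and the ETS letters CCGGAAG in 23.61% against 20.62%. The last 2 motifs can overlap in their shared AAG. A match describes letters only and shows no binding. The 5 members whose NRF1 letters lie wholly before the start are printed here over 60 bases each, 5′ to 3′ on the gene's strand, with the match in capitals. They are Ndufa11 (chr17:56717677-56717736, plus strand), an accessory subunit of complex I, the complex I assembly factor gene Ndufaf4 (chr4:24897945-24898004, plus strand), Cox6a1 (chr5:115349086-115349145, minus strand) of complex IV, and the ATP synthase genes Atp5g2 (chr15:102671055-102671114, minus strand) and Atp5k (chr5:108434415-108434474, minus strand).
Ndufa11: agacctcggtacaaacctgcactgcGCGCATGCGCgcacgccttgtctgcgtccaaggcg
Ndufaf4: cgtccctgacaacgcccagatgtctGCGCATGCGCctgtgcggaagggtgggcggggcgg
Cox6a1: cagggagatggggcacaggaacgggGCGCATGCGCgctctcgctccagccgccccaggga
Atp5g2: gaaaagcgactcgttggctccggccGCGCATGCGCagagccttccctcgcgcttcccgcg
Atp5k: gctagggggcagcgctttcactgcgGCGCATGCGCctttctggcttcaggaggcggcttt

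No member differed detectably between positive and negative cells. In limma's fit with the pool as a block, none of the 84 members was called higher or lower at an adjusted p under 0.05, whereas 11.1% of the 11946 genes tested were called (7.22% higher and 3.85% lower). With no block none of the 84 was called either, against 3.3% of all genes. Unadjusted p fell under 0.05 for 5 members with lower and for none with higher levels, and for 12.3% and 11% of all genes. The median log2 fold change, positive minus negative on the log2(RPKM + 1) scale, was -0.11 over the members and -0.11 over all genes tested. No member had groups that did not overlap, against 8.76% of all genes. None was higher and 9 were lower in all 4 pairs, against 10.3% and 19.8% of all genes.

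The precision bounds what these libraries could show. Standard errors of the members were 0.23 to 0.37 on the log2 scale, and the median 95% interval reached 0.62 to either side. The interval lay within a 2-fold change in either direction for 77 of 84 members. It excluded a 2-fold rise in 83, all but Uqcrb, and a 2-fold fall in 78. These counts hold only for the deposited scaling and the fit with the block. Limma moderates each gene's variance towards a trend over all genes, so a standard error can understate a member's own spread over pools. Atp5k had pair differences of -0.10, -1.38, 1.23 and -0.003 in pairs 1 to 4. The counts therefore depend on this moderation too. After scaling to core T cell genes the member median was 0.79, with Ndufb8 at 1.29 and Uqcrb at 1.27. With no block the standard error of Atp5k was 1.02, against 0.34 with it. The plot of fold changes with their intervals shows this for every member.

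**Figure D1:**
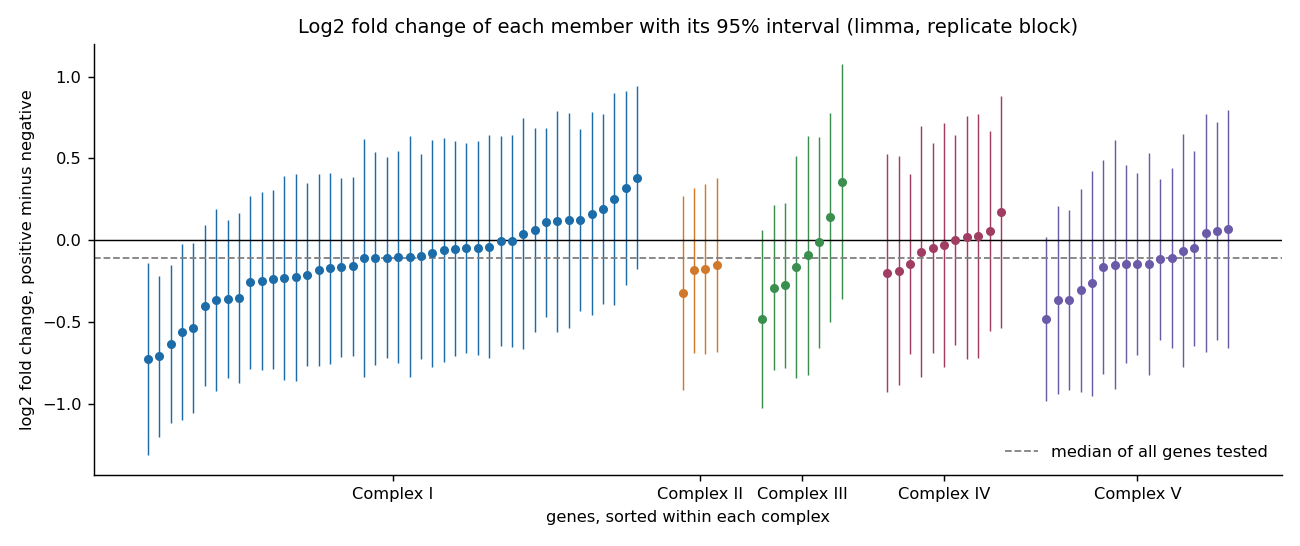
Log2 fold change (positive minus negative, log2(RPKM + 1)) of each of the 84 members on the vertical axis, sorted within its complex along the horizontal axis, with the 95% interval from limma with the replicate block. The points lie between -0.73 and 0.38 around the dashed median of all genes tested (-0.11).

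By complex the medians were -0.11 for complex I, -0.18 for complex II, -0.13 for complex III, -0.03 for complex IV and -0.15 for complex V. Complex II lay below 0 in 4 of 4 genes, complex I in 33 of 44, complex III in 6 of 8, complex IV in 7 of 11 and complex V in 14 of 17, where 7312 of all 11946 genes did. These are descriptions of lists without a test, and members share libraries.

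Complex I, the NADH dehydrogenase, held the members farthest from 0 on the lower side, and these were mostly assembly factors. The 7 core subunits, which carry the flavin and iron-sulfur clusters, had a median of -0.36. The 29 accessory subunits had -0.06 and the 7 assembly factors -0.26. After each library's trend with exon length was removed, these medians were -0.21, -0.007 and -0.20. Differences between these lists were not tested. Before that removal Ndufaf5, Ndufaf4 and Ndufaf1 had the 3 lowest values. They help to build the complex and are not part of the finished enzyme. Positive replicates 1 to 4 held Ndufaf5 at 5.62, 3.17, 7.20 and 5.91 RPKM, and the negative ones at 6.89, 10.5, 13.03 and 8.27 RPKM. Each positive library lay below its partner, but the groups overlapped, and the log2 fold change of -0.73 (SE 0.28) did not pass (limma adjusted p = 0.107). Ndufaf4 was at 10.3, 9.84, 18.1 and 12.3 RPKM against 15.2, 19.5, 30.0 and 20.5 RPKM, again lower in 4 of 4 pairs, with -0.71 (SE 0.24, limma adjusted p = 0.0581). Ndufaf4 was called, as the only member, when genes with a mean under 5 RPKM were left out (limma adjusted p = 0.0351, with 15.1% of genes called). Ndufaf1 was at 23.6, 26.1, 19.3 and 13.2 RPKM against 31.0, 36.7, 40.5 and 21.4 RPKM, with -0.64 (SE 0.23, limma adjusted p = 0.0855). The log2 fold changes of the other assembly factors were 0.11 for Ndufaf2, 0.16 for Ndufaf6, -0.24 for Ndufaf3 and -0.26 for Ndufaf7.

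The core subunit gene Ndufs3 and the accessory subunit gene Ndufa10 completed the 5 members with an unadjusted p under 0.05. Both, and Ndufaf1, Ndufaf4, Atp5b and Atp5a1, are named because of their values, after these were seen. Ndufs3 was at 90.3, 70.4, 134.8 and 120.4 RPKM in positive and at 102.0, 169.1, 214.2 and 134.0 RPKM in negative replicates 1 to 4 (-0.56, SE 0.26, limma adjusted p = 0.192). Ndufa10 varied little among positive libraries, at 77.2 ± 6.00 RPKM, and more among negative ones, at 118.3 ± 41.2 RPKM (SD, n = 4 each), with -0.54 (SE 0.25, limma adjusted p = 0.196). At the other end stood Ndufb8, an accessory subunit, at 83.7, 75.1, 316.7 and 357.0 RPKM against 64.8, 103.5, 176.0 and 208.4 RPKM. It was higher in 3 of 4 pairs with 0.38 (SE 0.27, limma adjusted p = 0.449).

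The most abundant complex I rows were Ndufb7 and Ndufa4. Ndufa4, first described in complex I and now placed in complex IV, was at 252.5, 206.0, 1343 and 1691 RPKM in positive and at 302.8, 409.0, 919.1 and 1418 RPKM in negative replicates 1 to 4. Ndufb7 was at 195.0, 133.1, 1418 and 1403 RPKM against 201.8, 327.2, 746.2 and 1392 RPKM. In both genes the replicate number parted the libraries far more than the sort did, with 4.59 and 5.79 times higher means in replicates 3 and 4 than in 1 and 2. Their log2 fold changes were -0.11 (SE 0.35) and -0.10 (SE 0.35).

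Complex II, succinate dehydrogenase, also works in the citric acid cycle and was the only complex whose median was not higher in replicates 3 and 4 than in 1 and 2 (log2 difference -0.36). Its 4 genes have 1073 to 2859 bases of exon. Among members of 1000 bases or more in other complexes, some were lower too, such as Ndufs1 (-1.34), Uqcrc1 (-0.58) and Atp5a1 (-0.63). Others were higher, such as Ndufa11 (2.24). Sdha, the flavoprotein that oxidises succinate, was at 198.2, 191.1, 63.7 and 54.1 RPKM in positive and at 208.7, 193.5, 108.9 and 49.0 RPKM in negative replicates 1 to 4. Replicates 1 and 2 held 2.87 times the level of replicates 3 and 4, and within a pair the values were close except in replicate 3. Sdhb, the iron-sulfur subunit, was at 238.4 ± 51.8 against 304.5 ± 96.2 RPKM, Sdhc at 61.5 ± 17.2 against 71.2 ± 23.0 RPKM and Sdhd at 142.7 ± 34.8 against 165.3 ± 63.5 RPKM (SD, n = 4 each). Sdhc and Sdhd code for the membrane anchors. The log2 fold changes of Sdha, Sdhb, Sdhc and Sdhd were -0.18, -0.32, -0.18 and -0.15, with SE of 0.24 to 0.29 and limma adjusted p of 0.567 to 0.807.

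Complex III hands electrons from ubiquinol to cytochrome c. It held 3 core and catalytic genes with a median of -0.29 and 5 small subunit genes with a median of -0.01. With the length trend removed these medians were -0.12 and 0.04, and their difference was not tested. Uqcrc1, a core protein gene, was at 207.6, 209.6, 170.0 and 112.8 RPKM in positive and at 250.6, 336.6, 270.4 and 141.3 RPKM in negative replicates 1 to 4. It was lower in 4 of 4 pairs and had the smallest value of the complex, -0.48 (SE 0.26, limma adjusted p = 0.285). Uqcrb, a small subunit gene, had the largest, 0.36 (SE 0.35, limma adjusted p = 0.619), with 298.0, 270.4, 1619 and 2046 RPKM against 257.8, 354.4, 868.2 and 1247 RPKM. Uqcr10 was at 178.7, 145.8, 1445 and 1595 RPKM against 210.7, 325.6, 753.1 and 1514 RPKM (-0.09, SE 0.35). As in complex I, the small subunits stood higher in replicates 3 and 4 than in 1 and 2, and Uqcrc1 did not.

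In complex IV, cytochrome c oxidase, log2 fold changes ranged from -0.20 for Cox8a to 0.17 for Cox7c. Cox6b1, which links the enzyme's monomers, was at 291.5, 241.3, 1677 and 1806 RPKM in positive and at 294.7, 452.4, 1005 and 1486 RPKM in negative replicates 1 to 4 (0.02, SE 0.36). Cox6c was at 231.4, 201.6, 1565 and 1963 RPKM against 279.3, 399.5, 849.3 and 1647 RPKM (-0.03, SE 0.36). Positive replicate 2 was the lowest of all 8 libraries in both genes, and positive replicate 4 the highest. Cox7a2l codes for a relative of the Cox7a2 subunit that joins complexes III and IV. Cox7a2 was at 118.8, 97.5, 684.2 and 770.4 RPKM against 131.1, 194.8, 401.4 and 599.2 RPKM, while Cox7a2l stayed between 103.9 and 223.1 RPKM in all 8 libraries. Their log2 fold changes were -0.00054 (SE 0.31) and -0.15 (SE 0.27). The largest and smallest values of the complex had limma adjusted p of 0.846 and 0.816.

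**Figure D2:**
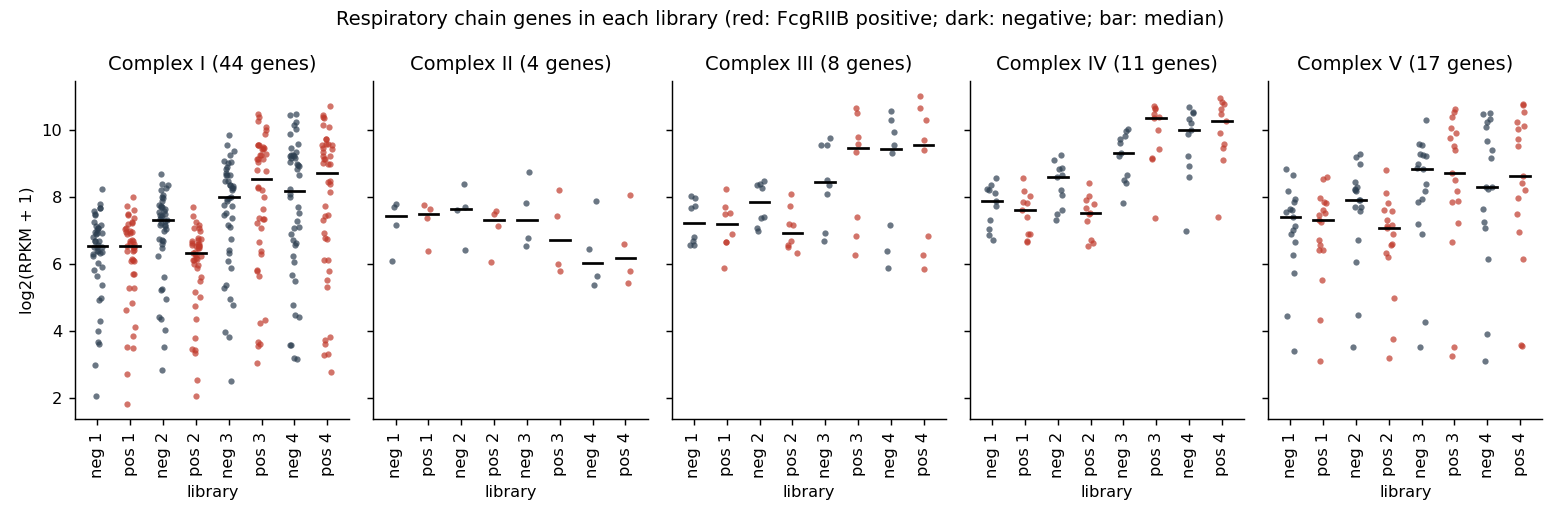
Level of every member, as log2(RPKM + 1) on the vertical axis, in the 8 libraries along the horizontal axis, by complex, with positive libraries in red, negative ones in dark and the median as a bar. In complexes I, III, IV and V the bars stand higher in replicates 3 and 4 than in replicates 1 and 2 of either group. Complex II, whose 4 genes all have 1073 bases of exon or more, does not show this.

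In complex V, the ATP synthase, the 5 genes of the catalytic head had a median of -0.31, the 4 of the peripheral stalk -0.15, the 3 of the c ring -0.15 and 3 small membrane subunits -0.05. Differences between these lists were not tested, and after removal of the length trend the head and membrane medians were -0.15 and 0.06. Atp5b, the catalytic beta subunit, was at 373.3, 448.7, 361.5 and 296.9 RPKM in positive and at 459.3, 621.1, 469.2 and 316.2 RPKM in negative replicates 1 to 4, lower in 4 of 4 pairs (-0.31, SE 0.30, limma adjusted p = 0.619). Atp5a1, the alpha subunit, was lower in 4 of 4 pairs too, at 173.9 ± 47.8 against 227.8 ± 74.0 RPKM (-0.36, SE 0.27, limma adjusted p = 0.464). Atp5h of the stalk and Atp5l of the membrane part were the most abundant. Atp5h was at 383.0, 277.1, 1562 and 1745 RPKM against 404.1, 586.9, 1267 and 1460 RPKM, and Atp5l at 225.0, 192.4, 1494 and 1699 RPKM against 243.2, 347.4, 757.3 and 1417 RPKM, with log2 fold changes of -0.15 (SE 0.37) and 0.07 (SE 0.35). The latter was the largest of the complex. The smallest, -0.48 (SE 0.24, limma adjusted p = 0.242), belonged to Atp5sl, whose product is known as an assembly factor of complex I rather than as a synthase subunit. It was at 13.3 ± 4.05 against 18.6 ± 3.42 RPKM and lower in 4 of 4 pairs.

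What parted the members most was the replicate number, and this followed gene length. The 26 members with under 600 bases of exon were higher in replicates 3 and 4 than in 1 and 2 by a median of 2.35 on the log2 scale, the 23 of 600 to under 1000 bases by 1.64 and the 35 of 1000 bases or more by 0.06. Other genes of the same length classes gave 2.30 (n = 130), 1.21 (n = 469) and -0.10 (n = 11263). Over the 84 members the difference and the exon length had a Spearman correlation of -0.75, given as a description because these points share 8 libraries. Of the members 58.3% have under 1000 bases, and of all genes tested 5.42%. Atp5k, the shortest member with 292 bases, had the largest difference, 3.09. The median level of members under 1000 bases exceeded that of longer members 1.81, 2.38, 3.48 and 8.21 times in negative replicates 1 to 4, and 1.80, 1.52, 6.65 and 8.87 times in positive ones. The members took 0.962% to 1.68% of reads in replicates 1 and 2 and 2.51% to 3.73% in replicates 3 and 4. Depth was lower in replicates 3 and 4, and its part in this was not tested.

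The table's exon length and the principal transcript's length disagreed in some members, named after these were seen. Ndufa11, Atp5j2 and Ndufb8 have 4537, 2592 and 2290 bases of exon in the table, 8.32, 2.71 and 3.37 times the principal transcripts of 545, 955 and 680 bases in GENCODE M21. They were higher in replicates 3 and 4 by 2.24, 2.45 and 1.64, like the short members. The table's length was at least 2 times the transcript's in 7 members. Of these, Ndufaf6, Ndufaf5, Atp5f1 and Ndufaf7 differed by less, at 0.82, 0.39, 0.04 and -0.08. In the other direction, Ndufb2 and Atp5g1 have 551 and 873 bases in the table, principal transcripts of 2413 and 2675.5 bases, and differences of 2.36 and 2.31. The Spearman correlation with the difference was -0.72 for transcript length, against -0.75 for the table's. Every one of the 47 members with a principal transcript under 1000 bases was higher there, by 1.25 to 3.09, while the other 37 ranged from -1.58 to 2.36. A longer exon length in the table lowers a gene's RPKM against other genes in every library alike and leaves its fold change as it is. Many of these short genes have processed pseudogenes, and the labels do not say how reads of near-identical copies were assigned.

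**Figure D3:**
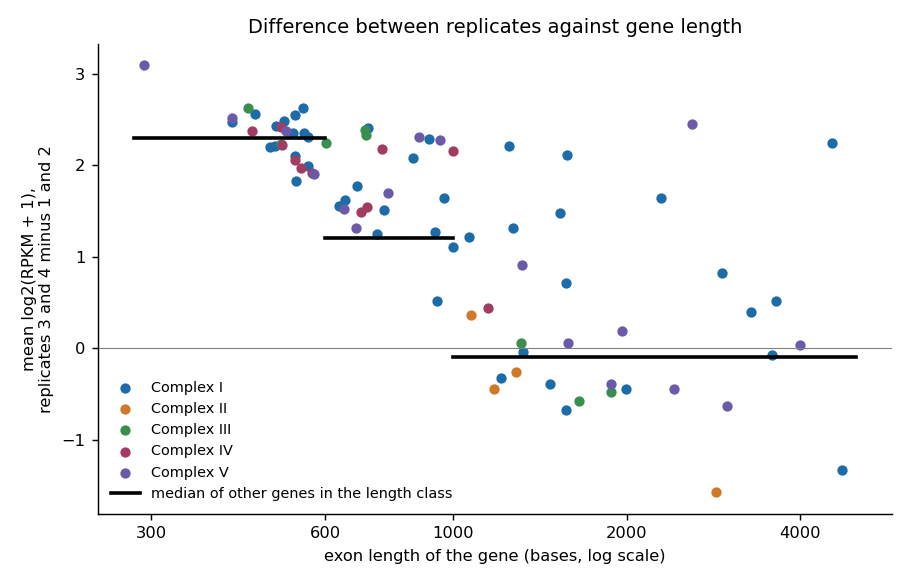
Mean log2(RPKM + 1) of replicates 3 and 4 minus that of replicates 1 and 2 on the vertical axis, against exon length in bases on a logarithmic horizontal axis, for the 84 members coloured by complex. Black bars are the medians of all other genes in the length class (2.30, 1.21 and -0.10), and the members fall from the upper left to the lower right with them.

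The sort difference itself changed from pool to pool. Member medians were -0.11, -0.98, 0.55 and 0.18 in pairs 1 to 4, against -0.05, -0.11, 0.02 and -0.26 over all genes tested. Pair 2 was lowest in every length class of members, at -1.08, -1.02 and -0.70 from short to long. In pair 3 the short members were higher and the long ones lower, at 0.89, 0.55 and -0.38. Other genes of the same length class moved with the members among short genes, at -1.19 in pair 2 and 0.75 in pair 3 for those under 600 bases. Among genes of 1000 bases or more they did not, at -0.07 and -0.002 against -0.70 and -0.38 for the members. This class has no upper bound, and its other genes are not matched in length to its members. The longest member has 4722 bases, while the median over all genes tested is 3420.5 bases. Whether members depart from genes of their own length was not tested. With replicates 1 and 2 alone all 84 members lay below 0 (median -0.55), and with replicates 3 and 4 alone 22 did (median 0.36), with no member called in either set of libraries (9.61% and 7.02% of all genes were). Without the pair of replicate 2 the median over all members was 0.18. After each library's trend with length was removed, an alternative chosen after seeing the data, the member median was -0.06, 49 of 84 lay below 0 and again none was called (13.5% of all genes were).

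**Figure D4:**
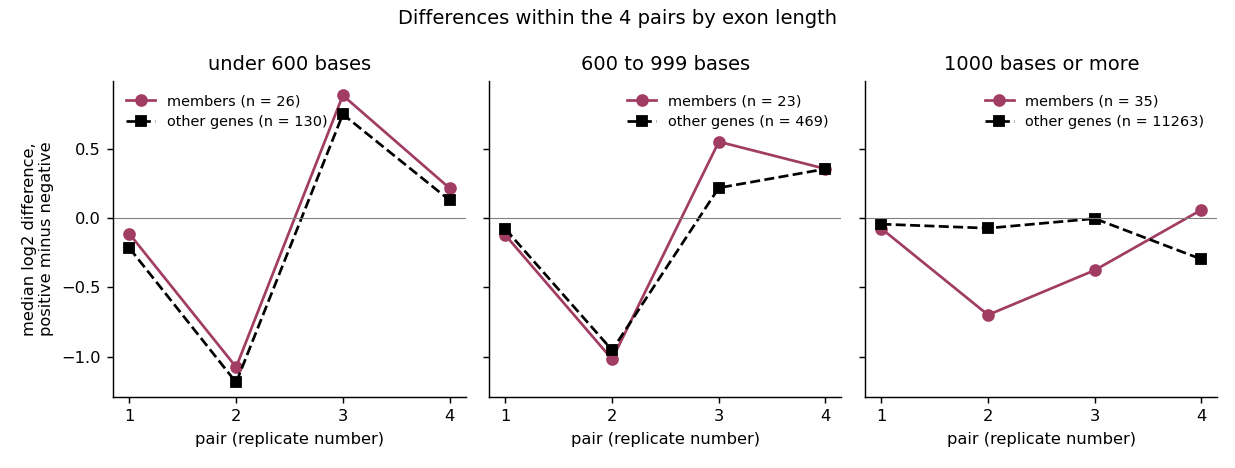
Median log2 difference, positive minus negative, on the vertical axis in each of the 4 pairs on the horizontal axis, for members and for other genes of the same exon length class. Short members run from -1.08 in pair 2 to 0.89 in pair 3, and the other short genes from -1.19 to 0.75.

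Members were called higher when levels were set against T cell genes. With levels divided by those of 15 core T cell genes, themselves lower in positive libraries (median -0.95), the fit called 68 of 84 members higher and none lower, where 33.4% of all genes were called higher. After it the median over all genes stood at 0.63 and over the members at 0.79, where both had been -0.11. The scaling multiplies all genes of a library by the same factor. The 1 added to RPKM before taking logs damps this shift in genes of low level. The gap was not tested and is not read as a difference between the lists. Medians of the dendritic cell and the macrophage markers were 3.88 and 2.91 before this scaling.

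Other genes of mitochondrial energy metabolism were read from 6 lists, and the clearest change was in the ATP synthase's own inhibitor. Atpif1, which codes for the small protein that blocks ATP hydrolysis by complex V, was at 182.7, 195.3, 1376 and 1693 RPKM in positive and at 59.0, 97.7, 165.7 and 491.4 RPKM in negative replicates 1 to 4. Each positive library was above its partner, although negative replicate 4 was above positive replicates 1 and 2. Its fold change of 1.86 on the log2 scale (SE 0.32) passed, with a limma adjusted p of 0.000246. With no block, which leaves the spread between pools in the error, it did not pass (adjusted p = 0.407). It was called within replicates 1 and 2 (1.30, adjusted p = 0.0488), within replicates 3 and 4 (2.41, adjusted p = 5.92e-08) and after removal of the length trend (1.94, adjusted p = 1.31e-07). Its exon length is 815 bases, and other genes of 600 to under 1000 bases had pair medians of -0.08, -0.95, 0.22 and 0.36 where Atpif1 had 1.61, 0.99, 3.05 and 1.78. The macrophage, dendritic cell and basophil markers were higher in the same libraries, and their part in this value was not tested.

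**Figure D5:**
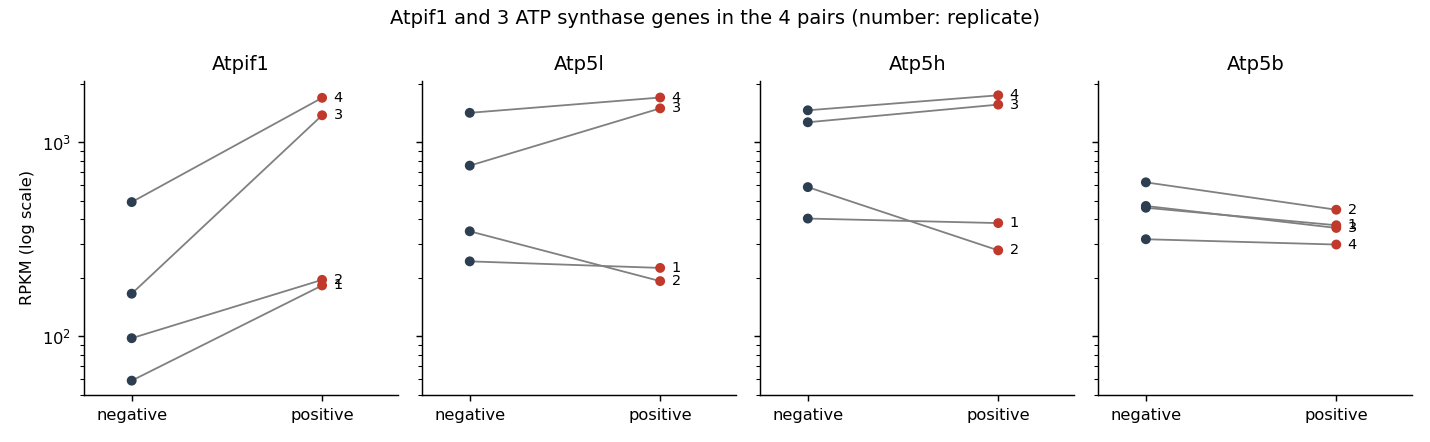
RPKM on a logarithmic vertical axis of Atpif1 and of the ATP synthase genes Atp5l, Atp5h and Atp5b in negative and positive libraries, with a line for each pool and its replicate number. All 4 lines rise for Atpif1, from 59.0 to 182.7 RPKM in replicate 1, and all 4 fall for Atp5b.

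The rest of that list of ATP export and uncoupling (8 tested) held no further call. Ucp2, an uncoupling protein of the inner membrane named after its values were seen, was higher in 4 of 4 pairs at 270.7 ± 49.6 against 192.3 ± 53.1 RPKM, with 0.52 (SE 0.27, limma adjusted p = 0.259), and passed after removal of the length trend (0.55, limma adjusted p = 0.0429). With the block 11.1% of all genes tested were called, and none of 14 citric acid cycle enzymes was (median -0.17). Mdh2, the mitochondrial malate dehydrogenase, was at 254.1 ± 41.0 against 294.2 ± 86.5 RPKM. None of 14 electron carrier and ubiquinone genes was called (median -0.25), with the flavoprotein gene Etfb at 230.2 ± 134.5 against 186.0 ± 72.4 RPKM, nor any of 26 assembly factors outside the rule (median -0.28), with the copper chaperone gene Cox17 at 722.7 ± 640.1 against 540.5 ± 439.2 RPKM.

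Of 13 regulators of mitochondrial biogenesis 2 were lower, where 3.85% of all genes tested were. Tfam, which packages and transcribes mitochondrial DNA, was at 12.7, 8.20, 10.8 and 8.90 RPKM in positive and at 18.0, 26.9, 21.2 and 13.7 RPKM in negative replicates 1 to 4. Its groups did not overlap, and its value of -0.89 on the log2 scale (SE 0.26) had a limma adjusted p of 0.0259. Myc, a growth regulator, was at 16.9 ± 4.60 against 34.0 ± 19.3 RPKM (SD, n = 4 each), with -0.85 (limma adjusted p = 0.0316).

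Of 13 fatty acid oxidation enzymes 2 were lower, against 3.85% of all genes tested. Acaa2, a mitochondrial thiolase, averaged 51.8 ± 19.6 RPKM with the receptor and 99.5 ± 36.8 RPKM without it (SD over 4 libraries each), with -0.91 (SE 0.25, limma adjusted p = 0.0173). Hadh, which carries out the preceding step of the spiral, was at 5.71 ± 1.85 against 12.5 ± 4.34 RPKM, with -0.99 (SE 0.28, limma adjusted p = 0.0255). Tfam, Myc, Acaa2 and Hadh were each lower in 4 of 4 pairs, as were 14 of 15 core T cell genes, and the part of the latter in these values was not tested. None of the 4 passed with no block (limma adjusted p = 0.199, 0.441, 0.415 and 0.175), without the pair of replicate 3 (0.134, 0.195, 0.152 and 0.211) or after scaling to core T cell genes (0.912, 0.936, 0.959 and 0.66). Without the pair of replicate 2, Acaa2 passed (0.0345) and Tfam, Myc and Hadh did not (0.124, 0.144 and 0.0626).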

How the data were processed

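RNA of 1000 sorted cells per library was amplified with SMART-seq v4 and made into libraries with NexteraXT, per the labels' protocols. Reads were aligned with TopHat2 to mm9, per the submitters' processing notes. For the read counter, its strand setting and the annotation the sources used here give nothing. The authors deposited RPKM per gene, with no counts. Depth, the read total behind each library's RPKM, was recovered from the steps of low values.

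Values were taken as log2(RPKM + 1). The 11946 of 13204 genes that reached 1 RPKM in 4 or more libraries were fitted together in limma 3.58.1 (R 4.3.3) with the sort and the pool as terms and a trended variance. Tests are two-sided, with Benjamini-Hochberg adjustment over all genes tested and a threshold of 0.05. Same-numbered samples came from the same pool, per the series' design text, and for pairs 1 to 4 the correlation of deviations from the group mean was 0.70, 0.41, 0.56 and 0.68. Unpaired libraries reached similar values, 0.68 for negative 1 with positive 2 and 0.52 for negative 4 with positive 3. The fit was tested on simulated data with independent noise for each gene. These hold no change of the sort difference from pool to pool that genes of similar length share. The fit under such changes was not tested. Promoter letters were searched in RefSeq windows, and transcript lengths are from GENCODE M21.

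The members and lists were chosen with earlier results of these data known. Named genes are, for each complex, the extremes in fold change and the most abundant members, all of complex II, Cox7a2l with its partner, and in each other list the called genes or, with none called, the most abundant gene. Further genes were named after their values were seen. Alternatives changed the block, pseudocount, filter, scaling, variance trend and replicates. Nothing in the labels says that pools were handled on separate days. A further result is not reported here.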

Additional observations from a re-analysis of the deposited data

Results flagged for a closer look

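Of 86 groups of 4 libraries examined, from 38 named genes and 5 complexes, 1 held a library set apart from the other three. Hadh was at 8.45 RPKM in positive replicate 1, while the other positive libraries lay between 4.39 and 5.01 RPKM. The gap took 0.846 of the group's range, above Dixon's 95% critical value for 4 samples. Chance sets apart about 1 in 20 such groups.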

How the results depend on the processing

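With no replicate block 0 members were called, as with the block, and the count over all genes was 394 instead of 1323. It left 0 calls among biogenesis regulators, 0 in fatty acid oxidation and 0 in ATP export. A mean of at least 5 RPKM gave 1 call among the members, 1 in complex I. Scaling to core T cell genes called 68 members (33, 4, 7, 11 and 13 in complexes I to V), with medians of 0.79 overall and 0.80, 0.72, 0.78, 0.88 and 0.76 by complex. All 84 members then lay above 0, and 64 of them changed sign. Among the latter Ndufaf5 stood at 0.065, Ndufaf4 at 0.15, Ndufaf1 at 0.24, Ndufs3 at 0.35, Ndufa10 at 0.37, Uqcrc1 at 0.42, Atp5a1 at 0.54 and Atp5sl at 0.38, and Cyc1 outside the members at 0.40. The same scaling turned Ndufa4 to 0.80, Ndufb7 to 0.81, Sdha to 0.73, Sdhb to 0.59, Sdhc to 0.72, Sdhd to 0.75, Uqcr10 to 0.82, Cox6c to 0.88, Cox7a2 to 0.91, Cox7a2l to 0.76, Cox8a to 0.71, Atp5b to 0.60, Atp5h to 0.76, Mdh2 to 0.73 and Myc to 0.026. That scaling raises positive libraries by construction, since the core T cell list averaged 6.75 in positive and 7.66 in negative libraries (log2(RPKM + 1)). It multiplies all genes of a library by the same factor. These values are therefore the earlier fold changes moved upward, by less in genes of low RPKM, and are not separate results. With replicates 3 and 4 alone the median of complex III was 0.41, and the cause was not tested. Leaving out each replicate gave member medians of -0.31 to 0.18. The shallowest library held 3060000 reads, and the part of depth in the standard errors was not tested.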

Other observations

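Cyc1 and Cycs, named after their values were seen, did not pass the test. Cyc1, the cytochrome c1 subunit of complex III that the naming rule leaves out, was at 32.5, 49.2, 64.1 and 59.4 RPKM in positive and at 56.7, 94.9, 74.6 and 61.3 RPKM in negative replicates 1 to 4. It was lower in 4 of 4 pairs, with a log2 fold change of -0.49 (SE 0.24, limma adjusted p = 0.22). Cycs, which codes for cytochrome c, was at 92.6, 91.5, 315.0 and 340.2 RPKM against 63.6, 102.9, 172.8 and 208.3 RPKM. It was higher in 3 of 4 pairs, with 0.48 (SE 0.26, limma adjusted p = 0.283).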
